A study of Mus musculus with 32 samples.

Results

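RNA levels of inflammatory monocytes (iMo) and patrolling monocytes (pMo) sorted from untreated mouse lungs were compared. The members are the 4 iMo and 4 pMo RNA-seq libraries, chosen by their cell type labels, which are 8 of the 16 RNA libraries and 8 of the 32 samples of the series. They form 4 groups of 2 libraries, which are iMo of C57BL6/J mice, iMo of DBA2/J mice, pMo of C57BL6/J mice and pMo of DBA2/J mice, written C57BL6J and DBA2J from here on. Both are inbred laboratory strains, and no group carries a transgene, a deletion or a treatment. The other RNA libraries are alveolar and interstitial macrophages, and the ATAC-seq samples map open chromatin in the same 4 cell types and both strains. Lung cells were sorted by a stain for the integrin chains CD11b and CD11c, for CD45, CD64, F4/80 and SiglecF, and for Ly6c and Ly6g. The gates used for each cell type are not given in the sources used here. The source labels call iMo and pMo macrophages, whereas the study design calls them monocytes, and the second name is used here. No label gives the age or sex of the animals, or says whether the replicates are separate animals, so that p-values measure only the spread between these samples.

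Monocytes are white blood cells made in the bone marrow. The inflammatory, or classical, kind carries much Ly6C and the receptor CCR2, leaves the blood at sites of inflammation and can become a macrophage or a dendritic-like cell there. The patrolling, or non-classical, kind carries little Ly6C, crawls along the inner wall of small vessels, clears debris from it, and depends in mice on the nuclear receptor NR4A1. The lung holds both kinds in its dense capillary bed and its tissue.

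Levels are TPM (reads per gene length, scaled to the sum of the library) rescaled to the same sum in every library after 2 ribosomal entries, Rn45s and Mir6236, were removed, and replicate values are listed in the order C57BL6J 1, C57BL6J 2, DBA2J 1 and DBA2J 2. The removed entries took 22.6% to 44.7% of the deposited sum in iMo and 43.0% to 57.4% in pMo libraries. The deposited TPM times the gene's genomic span were whole multiples of 1 number per library, so that levels are per base of genomic span, introns included, and whole reads could be recovered. These came to 6380650 to 12170100 reads per iMo library and 9045450 to 12111300 reads per pMo library without the ribosomal entries. A level of a short gene can rest on very few reads, and levels of single genes are therefore not compared with each other here. The exception is marker lists, whose levels are summed and whose main contributors are named. In these sums genes of short span weigh more for the same number of reads. The first principal component of the 8 libraries held 31.5% of the variance and separated iMo from pMo, and the second, with 24.2%, separated the strains. In bulk RNA, fewer cells of a type and less RNA per cell cannot be told apart.

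The marker genes of both labels were in place. Ly6c2, which encodes the Ly6C antigen that is the classical marker of inflammatory monocytes, stood at 1165, 1269, 925 and 727 TPM in iMo, against 28.6, 13.7, 27.7 and 27.6 TPM in pMo. The matrix proteoglycan gene Vcan stood at 35.3, 54.8, 79.8 and 84.3 TPM in iMo, against 0.248, 0.572, 1.75 and 0.872 TPM in pMo. For both genes every iMo library was far above every pMo library, with log2 differences (iMo minus pMo, with standard error) of 5.35 ± 0.28 and 5.10 ± 0.21 and adjusted p of 7.48e-05 and 2.73e-05. Cd300e, an activating receptor of patrolling monocytes, stood at 20.3, 31.7, 8.34 and 19.0 TPM in iMo, against 773, 878, 225 and 329.6 TPM in pMo. Spn, the sialophorin CD43 used to gate non-classical monocytes, stood at 884, 1278, 663 and 905 TPM in iMo, against 4826, 5148, 3730.2 and 3537 TPM in pMo. Both were lower in every iMo library than in any pMo library, at -4.64 ± 0.29 (adjusted p = 1.12e-04) and -2.23 ± 0.15 (adjusted p = 1.24e-04). Ly6c was one of the stained antigens, so that the first of these 4 differences cannot be told apart from the choice of cells in the sort.

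**Figure D1:**
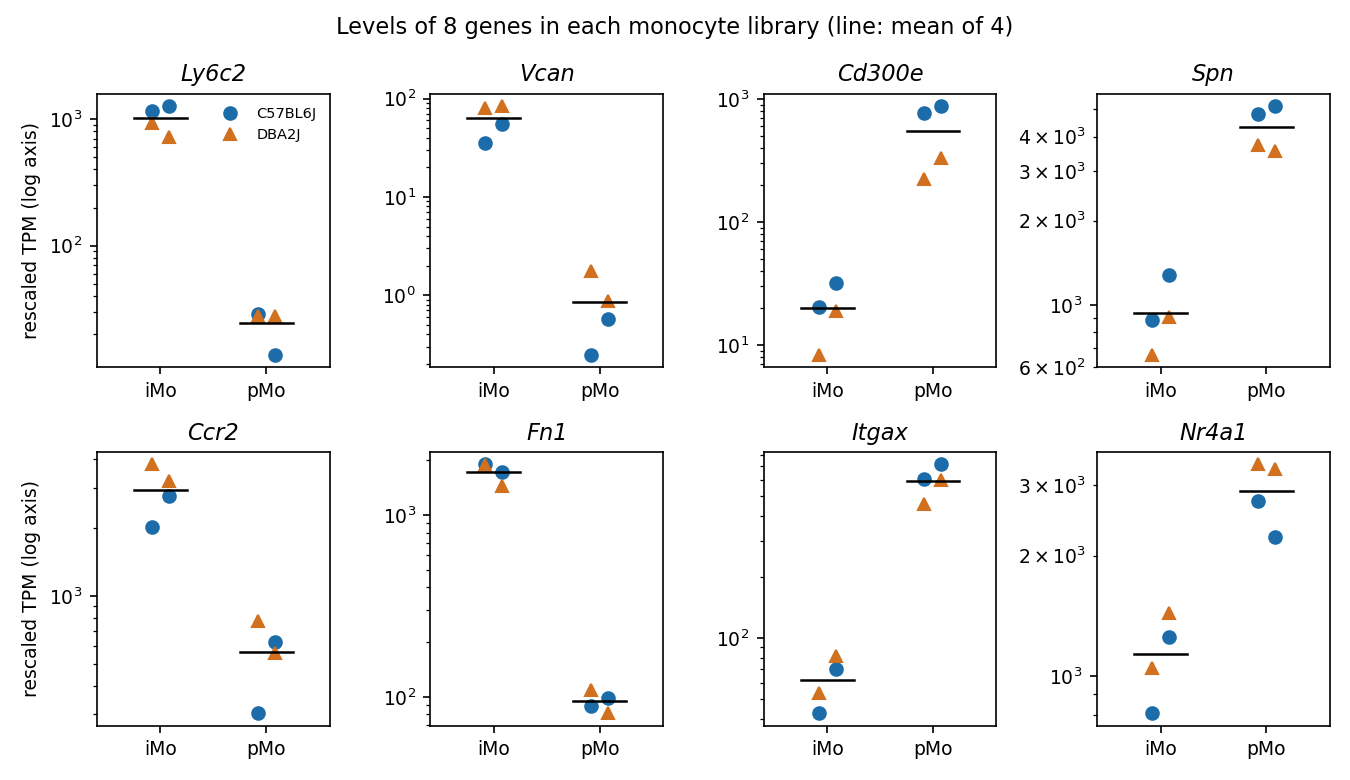
Rescaled TPM (log axes) of 8 genes in the 4 iMo (left) and 4 pMo (right) libraries, with circles for C57BL6J, triangles for DBA2J and a line at the mean of 4. The iMo libraries lie above the pMo libraries for Ly6c2, Vcan, Ccr2 and Fn1 and below them for Cd300e, Spn, Itgax and Nr4a1, with no overlap in any panel.

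The comparison of all genes, with strain as a covariate, called 2490 of 12833 tested genes at an adjusted p under 0.05, which is 19.4%. Of these 960 were higher in iMo (7.48% of the tested genes) and 1530 lower (11.9%), and 443 and 723 of them differed at least 2-fold. Over all tested genes the median difference was -0.14 (log2), so that the zero of the scale lies above the middle of the genes. As deposited, with the ribosomal entries left in, the median was 0.15 and the split was 1808 higher and 612 lower, and with median-of-ratios scaling it was -0.01 with 1317 higher and 1226 lower, and with quantile normalization 0.01 with 1315 and 1188. Without regard to the test, every iMo library lay above every pMo library for 7.55% of the tested genes and below every one for 14.1%. Genes and groups below are described against this background, by the first of these scalings, and the deposited values are those without the rescaling.

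Of the genes behind the 8 stained antigens, 4 differed, and these differences cannot be told apart from the choice of cells in the sort. Besides Ly6c2, Fcgr1 (CD64, the high-affinity receptor for immunoglobulin G) was higher in iMo, at 138 ± 9.15 TPM in iMo and 57.1 ± 15.4 TPM in pMo (SD, n = 4 each), a log2 difference of 1.30 ± 0.21. Itgax (CD11c) was lower at -3.27 ± 0.23, and Adgre1 (F4/80) at -0.73 ± 0.17, a call that ended without the rescaling. Ptprc (CD45, -0.36 ± 0.23), Itgam (CD11b, -0.09 ± 0.11), Ly6c1 (0.27 ± 0.66) and Siglecf (-1.11 ± 0.40) did not pass the test. Ly6g, the neutrophil antigen, was listed at 0 in all 8 libraries.

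**Figure D2:**
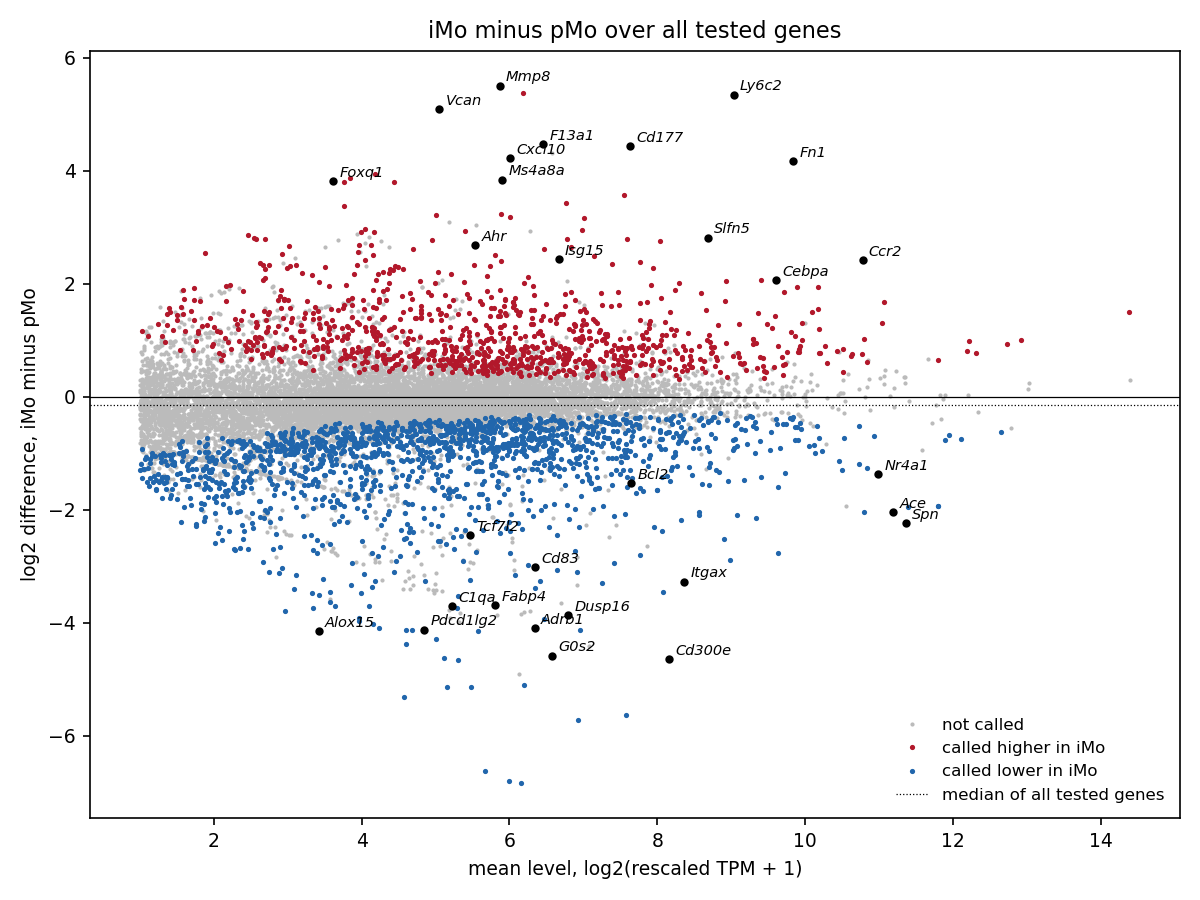
Log2 difference, iMo minus pMo, against the mean level, log2(rescaled TPM + 1), over the 8 libraries for each tested gene, with 960 called higher (red) and 1530 called lower (blue). Named genes are in black, from Mmp8 and Ly6c2 at the top to Cd300e and G0s2 at the bottom, and the dotted line is the median of all tested genes at -0.14.

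The largest differences were sought among called genes whose libraries did not overlap and whose mean reached 10 TPM in the higher type. Higher in iMo, those of the first 15 reported here were led by the collagenase gene Mmp8 (5.51), followed by Ly6c2, Vcan, F13a1 (4.48), Cd177 (4.44), Cxcl10 (4.23), Fn1 (4.18), Ms4a8a (3.85), Foxq1 (3.82), Gpr15 (3.80), Mfsd7a (3.58), Rhou (3.37), Thbs1 (3.24) and Slfn4 (3.19). Foxq1 encodes a forkhead transcription factor, Gpr15 a homing receptor of leukocytes, Rhou a small GTPase and Slfn4 a member of the Schlafen family. Foxq1 had 7 to 75 reads per iMo library and at most 2 in a pMo library. Gpr15 had 16 to 32 reads against at most 5, and passed in neither strain alone, so that the size of both differences is uncertain. On the other side 6 of the first 15 were microRNA or small nucleolar RNA entries with at most 3 reads in any iMo library, and Pf4 had none in iMo. The other 8 were Cd300e, G0s2 (-4.58), Alox15 (-4.14), Pdcd1lg2 (-4.12), Adrb1 (-4.09), Dusp16 (-3.86), Cd300ld3 (-3.74) and Phlda3 (-3.74). Of the genes in both directions named here, G0s2 encodes an inhibitor of the lipase ATGL and Pdcd1lg2 the PD-1 ligand PD-L2, while Alox15 encodes a lipoxygenase that makes resolving lipid mediators.

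Markers of classical monocytes were mostly higher in iMo, 14 of 19 tested, with 1 lower and a median log2 difference of 2.07, against 7.48% of all tested genes called higher and 11.9% called lower. Markers of patrolling monocytes were lower in 21 of 23, with none higher and a median of -2.14, and 20 or 21 were lower with each of the other scalings and without each library. Of the other 5 classical markers, Clec4e (Mincle, -1.10 ± 0.26) was lower in iMo by this scaling and did not pass without rescaling. Lcn2 (0.84 ± 0.35), Gsr (0.35 ± 0.14), Ly6a (-0.48 ± 0.23) and Sirpb1a (-0.51 ± 0.38) did not pass. On the patrolling side the exceptions were Cx3cr1 (the fractalkine receptor, -0.34 ± 0.11, adjusted p = 0.0675) and Clec4a3 (-0.44 ± 0.17), which did not pass. Cx3cr1 stood at 464, 541, 597 and 562 TPM in iMo, against 607, 727, 763 and 639.9 TPM in pMo, and its groups did not overlap although the test across all genes did not call it. Both lists hold genes known from earlier work on these cells, so that their direction describes the labels rather than a separate outcome.

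**Figure D3:**
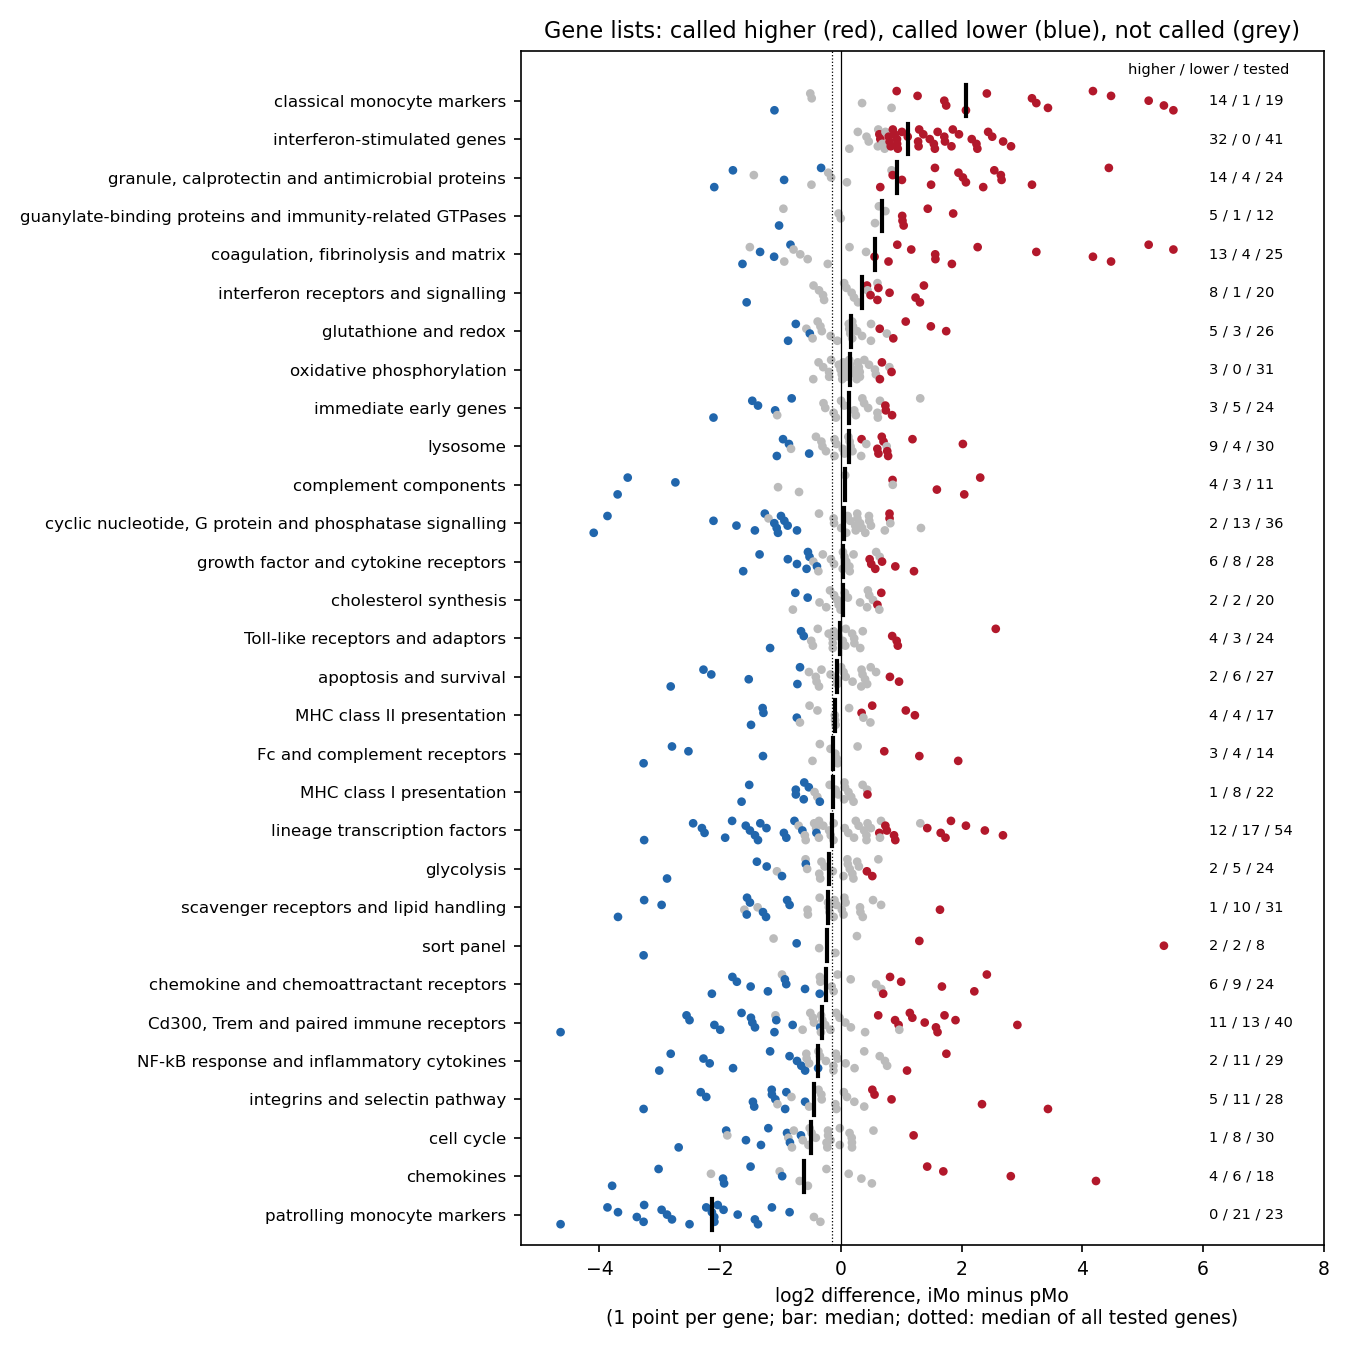
Log2 difference, iMo minus pMo, for the tested members of 30 gene lists (1 point per gene, red for called higher, blue for called lower, grey for not called, bar at the list's median, dotted line at the median of all tested genes). Classical monocyte markers, interferon-stimulated genes and granule proteins lie furthest to the right, and patrolling markers, chemokines and the cell cycle furthest to the left, with called genes on both sides in most lists.

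Receptors for homing and attraction differed in both directions, 6 of 24 higher (3 without the first DBA2J iMo library) and 9 lower. Without the rescaling 6 were higher and 5 lower. With it, 7.48% of all tested genes were higher and 11.9% lower. Ccr2, the receptor for CCL2 that lets classical monocytes leave the bone marrow, stood at 2016, 2750.5, 3797 and 3202 TPM in iMo, against 303, 623, 773 and 559 TPM in pMo. Every iMo library was above every pMo library, at 2.42 ± 0.23 (adjusted p = 4.76e-04). Ccr1 (2.21 ± 0.47), the platelet activating factor receptor Ptafr (1.68 ± 0.20), the chemerin receptor Cmklr1 (1.00 ± 0.14), the sphingosine phosphate receptor S1pr2 (0.82 ± 0.19) and the leukotriene B4 receptor Ltb4r1 (0.70 ± 0.18) were also higher. S1pr5, a sphingosine phosphate receptor that patrolling monocytes need to leave the bone marrow, stood at 232, 268, 176 and 280.4 TPM in iMo, against 1237, 780.1, 1044 and 1146 TPM in pMo. Its iMo values were all below its pMo values (-2.14 ± 0.20, adjusted p = 3.83e-04). The neutrophil chemokine receptor Cxcr2 (-1.80 ± 0.39), the formyl peptide receptor Fpr1 (-1.72 ± 0.30), Cxcr4 (-0.90 ± 0.15), S1pr1 (-0.93 ± 0.17), and the lymphocyte homing receptors Ccr7 (-1.49 ± 0.21) and Cxcr5 (-1.21 ± 0.28) were lower as well, with the calls of S1pr1 and Cxcr5 ending without the rescaling. Ccr7 and Cxcr5 are also expressed by B cells. The 9 tested B cell markers summed to 126 and 160 TPM in C57BL6J iMo, against 282 and 413 TPM in C57BL6J pMo. In DBA2J the sums were 610 and 685 TPM in iMo, against 3458 and 3265 TPM in pMo, with the high values mainly from Cd22. The part of B cell RNA in these results was not tested.

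Adhesion genes were lower in iMo in 11 of 28 cases and higher in 5, against 11.9% and 7.48% of all tested genes. The collagen receptor chain Itga1 stood at 9.90, 16.1, 13.5 and 14.3 TPM in iMo, against 2.09, 2.03, 1.38 and 1.84 TPM in pMo. No library of one kind reached the range of the other (2.34 ± 0.21, adjusted p = 3.29e-04), and the fibronectin receptor chain Itga5 (0.84 ± 0.16) was higher too. Itgal, the alpha chain of LFA-1 by which patrolling monocytes hold on to endothelium, stood at 689.7, 1039, 782 and 1035 TPM in iMo, against 2087, 1982, 1732 and 1920.2 TPM in pMo. It was lower in iMo at -1.14 ± 0.16 (adjusted p = 0.00221), and its partner chain Itgb2 at -0.90 ± 0.09. Lower as well were Pecam1 (-2.32 ± 0.22), Itgb1 (-1.14 ± 0.20), Itgav (-1.08 ± 0.19), Itgad (-1.43 ± 0.32) and Itgb3 (-1.46 ± 0.26), which is a platelet integrin chain as well, and the call of Itgad ended with quantile normalization. Spn and Itgax, the second behind a stained antigen, belong to this list too and were given above.

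Genes of coagulation, fibrinolysis and the extracellular matrix were higher in iMo in 13 of 25 cases and lower in 4 (2 without the second C57BL6J pMo library), against 7.48% and 11.9% of all tested genes. Without the rescaling the counts were 14 and 1. Fn1, encoding fibronectin, which bridges cells and collagen, stood at 1894, 1716, 1870.1 and 1433 TPM in iMo, against 89.4, 98.3, 109.6 and 81.2 TPM in pMo. The lowest iMo library was more than 10 times the highest pMo library (4.18 ± 0.13, adjusted p = 6.97e-06). F13a1, the clotting factor XIII subunit that cross-links fibrin, stood at 127, 169, 203 and 169.9 TPM in iMo, against 3.97, 6.08, 11.7 and 5.90 TPM in pMo. Mmp8, which cleaves fibrillar collagen, stood at 94.3, 112, 134 and 113 TPM in iMo, against 0.919, 1.08, 2.45 and 1.81 TPM in pMo. Neither gene's groups overlapped, with adjusted p of 7.48e-05 and 3.99e-06. Thbs1, encoding the matricellular protein thrombospondin 1, stood at 109, 94.6, 116 and 95.3 TPM in iMo, against 27.0, 9.36, 10.0 and 3.68 TPM in pMo, and one C57BL6J pMo library lay well above the other 3 (3.24 ± 0.42, adjusted p = 0.00185). Higher as well were the clotting factors F5 (1.56 ± 0.32) and F10 (0.79 ± 0.18), the urokinase gene Plau (0.94 ± 0.26), Tgfbi (1.84 ± 0.10), Mmp19 (2.27 ± 0.27), the heparanase gene Hpse (1.57 ± 0.13) and the protease inhibitor Timp2 (1.17 ± 0.14). Among those lower were the thrombin receptor gene Thbd (thrombomodulin, -0.83 ± 0.11), the protease inhibitor Serpinb2 (-1.34 ± 0.38) and the gelatinase Mmp9 (-1.63 ± 0.30). Mmp9 had at most 4 reads in an iMo library. The call of Serpinb2 ended with quantile normalization and without the rescaling.

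Granule, calprotectin and antimicrobial genes were higher in iMo in 14 of 24 cases and lower in 4, or in 2 without the first C57BL6J iMo library and in 2 without the rescaling. Of all tested genes 7.48% were higher and 11.9% lower. Lyz2, the macrophage lysozyme, stood at 30289, 28165, 36386 and 31009.6 TPM in iMo, against 10828, 11989, 11983 and 9784 TPM in pMo, without overlap (1.50 ± 0.12, adjusted p = 2.07e-04). Chil3, a chitinase-like protein of classical monocytes, stood at 337, 408, 110.4 and 80.2 TPM in iMo, against 26.2, 26.5, 9.93 and 22.5 TPM in pMo. In both kinds its C57BL6J levels exceeded those of the DBA2J libraries, and it was higher in iMo in each strain (3.17 ± 0.32, adjusted p = 5.58e-04). The haptoglobin gene Hp (2.07 ± 0.17), the protease inhibitor Slpi (2.36 ± 0.29), Wfdc17 (2.65 ± 0.24), and the S100 proteins S100a10 (2.02 ± 0.20), S100a6 (1.95 ± 0.26) and S100a4 (1.56 ± 0.30) were higher too. The azurophil granule proteases Prtn3 and Ctsg, which are made at the promyelocyte and early monocyte stages, were detected at low levels, Prtn3 at 20.9, 4.62, 17.4 and 9.28 TPM in iMo, against 0.882, 3.09, 0.879 and 0 TPM in pMo. Ctsg had 29 reads over the iMo libraries and none in pMo. With the floor set at 3 reads over the group, it was at least 12.2-fold higher in iMo. Such a bound is a ratio of pooled reads and leaves out the counting error of the observed reads and the spread between libraries. The calprotectin chains S100a8 (-0.49 ± 0.68, adjusted p = 0.651) and S100a9 (-1.44 ± 0.54, adjusted p = 0.106) did not pass and stood at 0, 1.75, 0.448 and 5.67 TPM in iMo for S100a9, against 2.50, 4.20, 11.5 and 5.35 TPM in pMo. The secondary granule gene Ngp was at 0 in all iMo libraries, at least 6.61-fold lower by the same floor, a call that ended with quantile normalization, and the peptidoglycan binding protein Pglyrp1 was lower at -2.10 ± 0.20. Neutrophil markers, which overlap this list, were higher in 2 and lower in 3 of 8 and summed to 468 to 673 TPM in iMo and 301 to 441 TPM in pMo, mostly Mmp8 and Csf3r, and their part in the result was not tested.

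Interferon-stimulated genes were called in 1 direction. Of 41 tested members 32 were higher in iMo and none lower, with a median log2 difference of 1.11. Of all tested genes 7.48% were called higher and 11.9% lower. All 41 members had a difference above 0, against 37.8% of all tested genes. All 41 were also above 0 within C57BL6J and within DBA2J taken alone. The number called was 37 to 40 with the other scalings and 25 to 36 when 1 library was left out, fewest without the first DBA2J iMo library. Isg15, a ubiquitin-like protein attached to other proteins after interferon, stood at 252, 170.3, 114 and 140.1 TPM in iMo, against 18.8, 57.4, 32.0 and 20.2 TPM in pMo. Its lowest iMo library was about 2 times the highest pMo library, and the second C57BL6J pMo library lay above the other 3 (2.44 ± 0.34, adjusted p = 0.00237). The translation inhibitor Ifit1 stood at 28.6, 49.1, 30.5 and 29.1 TPM in iMo, against 6.77, 9.72, 3.89 and 5.80 TPM in pMo, with the groups again apart (2.25 ± 0.22, adjusted p = 5.35e-04). Slfn5, a Schlafen family member induced by interferon, stood at 647, 827, 713 and 673 TPM in iMo, against 78.3, 151, 96.2 and 87.5 TPM in pMo, the largest difference of the list (2.82 ± 0.20, adjusted p = 1.44e-04).

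The other members with large differences included the oligoadenylate synthetase-like genes Oasl1 (2.69 ± 0.20) and Oasl2 (1.83 ± 0.17), Ifit2 (2.26 ± 0.28) and Ifit3 (2.51 ± 0.32), the viperin gene Rsad2 (2.17 ± 0.27), Ifi27l2a (1.86 ± 0.20), and the dynamin-like antiviral genes Mx2 (1.73 ± 0.17) and Mx1 (1.56 ± 0.17). Reads of Ifit3 and its near copy Ifit3b cannot be told apart with certainty. The 9 that did not pass were Phf11d, Samd9l, Ifih1, Ddx60, Herc6, Isg20, Parp9, Zbp1 and Ifi35, with differences between 0.14 for Ifi35 and 0.74 for Phf11d. The interferon-induced chemokines Cxcl10 and Cxcl9, which attract T and NK cells through CXCR3, were kept in a separate list. Cxcl10 stood at 121, 140.3, 111 and 107 TPM in iMo, against 2.74, 15.4, 2.05 and 8.08 TPM in pMo. Cxcl9 stood at 9.25, 7.60, 10.9 and 8.90 TPM in iMo, against 0, 0, 1.83 and 0.490 TPM in pMo. Both were higher in every iMo library than in any pMo library, at 4.23 ± 0.49 (adjusted p = 0.00102) and 2.82 ± 0.29 (adjusted p = 6.62e-04).

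**Figure D4:**
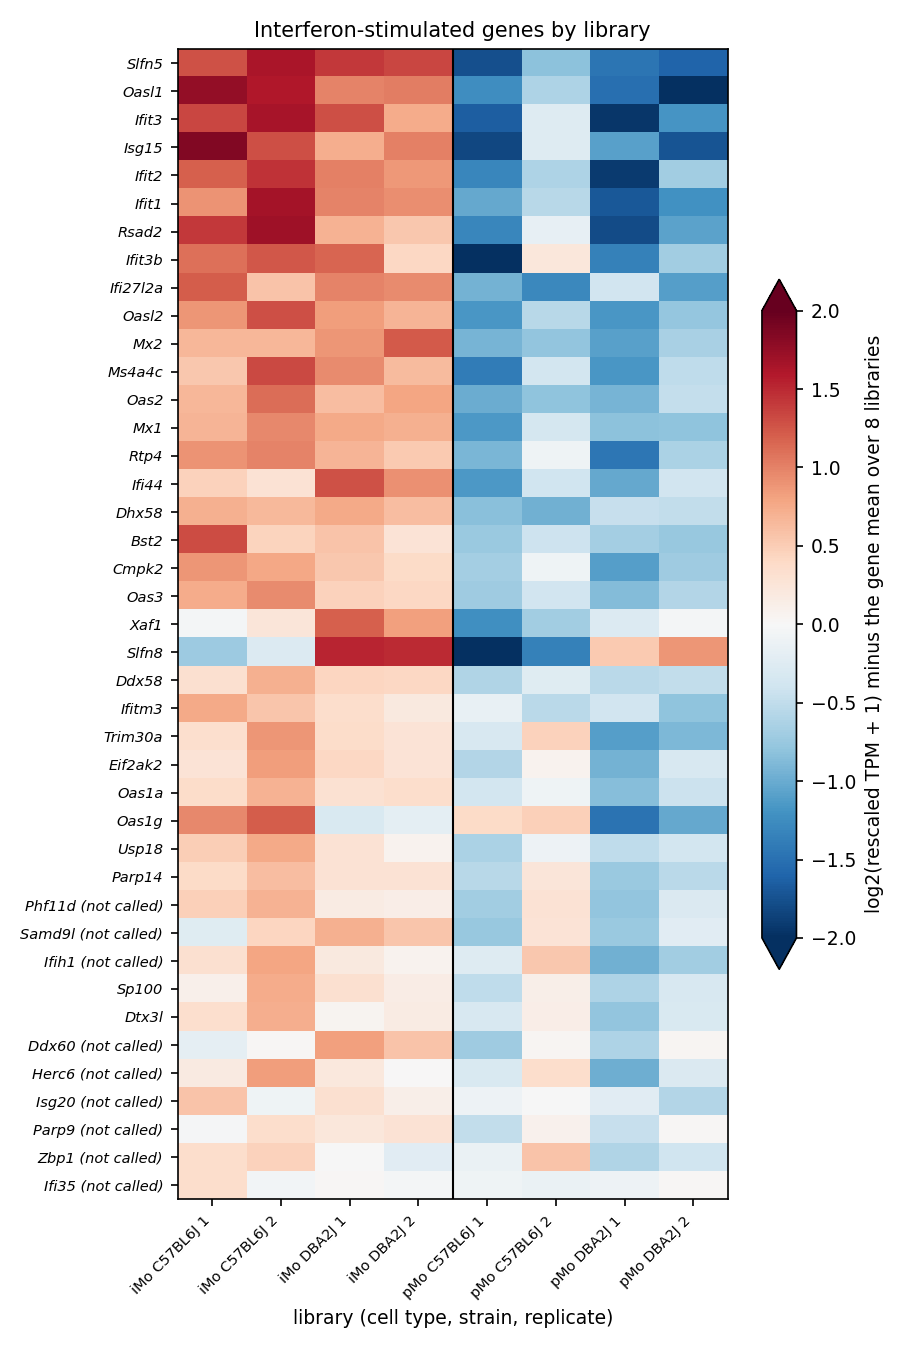
Level of each of the 41 tested interferon-stimulated genes in the 4 iMo (left of the black line) and 4 pMo (right) libraries, as log2(rescaled TPM + 1) minus the gene's mean over the 8 libraries, ordered by the difference between the types. Red prevails in iMo and blue in pMo down to the genes marked not called, the second C57BL6J pMo library is paler than the other pMo libraries for many genes, and Slfn8 and Oas1g also differ between the strains.

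Among interferon receptors and signalling genes 8 of 20 were higher, 5 without the second DBA2J iMo library, and 1 lower. With median-of-ratios scaling and without the rescaling 12 were higher. By the scaling used here, 7.48% of all tested genes were higher and 11.9% lower. Irf7, the transcription factor that sustains type I interferon responses, stood at 1575, 1431, 1401 and 1276 TPM in iMo, against 602, 489, 591 and 609 TPM in pMo. Stat2, a subunit of the complex that binds the interferon response element, stood at 208, 238, 185 and 177 TPM in iMo, against 72.5, 82.3, 73.8 and 78.2 TPM in pMo. Both separated the groups, at 1.31 ± 0.11 (adjusted p = 2.77e-04) and 1.38 ± 0.11 (adjusted p = 2.07e-04), and Irf9, another subunit of that complex, was higher at 0.62 ± 0.12. The receptor chains Ifnar1 (0.09 ± 0.14), Ifnar2 (0.18 ± 0.10), Ifngr1 (-0.28 ± 0.11) and Ifngr2 (0.06 ± 0.13) did not pass. Of the feedback inhibitors, Socs1 was higher (1.24 ± 0.33) and Socs3, which restrains cytokines that use the gp130 chain, was lower (-1.56 ± 0.26). Guanylate-binding proteins and immunity-related GTPases, which are induced mainly by interferon gamma, were higher in 5 of 12 cases, led by Gbp7 (1.86 ± 0.21) and Gbp3 (1.44 ± 0.27), and 1, Gbp9 (-1.02 ± 0.28), was lower but not without the rescaling or with median-of-ratios scaling.

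The promoters of 4 genes that were higher in iMo and of Fcgr4, which was lower, are shown because the interferon-stimulated response element, GAAANNGAAA, occurs in each. Windows are from RefSeq, build GRCm38.p6, 250 bases before to 50 after the gene start, printed on the gene's strand with capitals marking every match on either strand. Isg15 lies at chr4:156200769-156201068 (minus strand), Ifit1 at chr19:34640639-34640938 (plus), Slfn5 at chr11:82951852-82952151 (plus), Cxcl10 at chr5:92348840-92349139 (minus) and Fcgr4 at chr1:171018676-171018975 (plus).
Isg15: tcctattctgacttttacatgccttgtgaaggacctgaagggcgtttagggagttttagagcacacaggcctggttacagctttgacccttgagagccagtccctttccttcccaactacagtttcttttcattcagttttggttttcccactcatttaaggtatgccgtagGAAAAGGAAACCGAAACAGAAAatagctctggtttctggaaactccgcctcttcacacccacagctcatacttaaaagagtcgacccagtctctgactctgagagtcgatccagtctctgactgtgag
Ifit1: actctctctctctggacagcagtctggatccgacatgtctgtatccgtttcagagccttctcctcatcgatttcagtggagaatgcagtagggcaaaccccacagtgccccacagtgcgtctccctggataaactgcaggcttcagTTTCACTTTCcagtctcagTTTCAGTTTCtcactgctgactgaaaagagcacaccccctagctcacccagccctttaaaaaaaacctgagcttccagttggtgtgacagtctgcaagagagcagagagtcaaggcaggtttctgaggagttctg
Slfn5: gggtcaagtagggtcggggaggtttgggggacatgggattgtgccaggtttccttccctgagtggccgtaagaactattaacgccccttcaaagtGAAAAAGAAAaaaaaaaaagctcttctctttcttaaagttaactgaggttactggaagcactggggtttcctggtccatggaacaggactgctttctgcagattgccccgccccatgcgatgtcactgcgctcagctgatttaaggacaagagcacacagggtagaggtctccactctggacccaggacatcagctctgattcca
Cxcl10: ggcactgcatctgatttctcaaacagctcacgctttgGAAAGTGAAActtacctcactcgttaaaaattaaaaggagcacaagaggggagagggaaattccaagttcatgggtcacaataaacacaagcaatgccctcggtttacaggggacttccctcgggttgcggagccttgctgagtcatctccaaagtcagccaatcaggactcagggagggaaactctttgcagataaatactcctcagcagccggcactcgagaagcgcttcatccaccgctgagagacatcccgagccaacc
Fcgr4: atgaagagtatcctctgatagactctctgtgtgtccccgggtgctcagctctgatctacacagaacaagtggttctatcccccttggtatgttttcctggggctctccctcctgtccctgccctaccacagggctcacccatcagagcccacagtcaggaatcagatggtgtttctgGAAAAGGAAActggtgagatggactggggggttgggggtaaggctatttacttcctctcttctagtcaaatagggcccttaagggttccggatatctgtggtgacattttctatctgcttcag
In the Isg15 window 3 matches overlap one another in a run whose first bases lie 78, 72 and 66 bases before the gene start. Ifit1 has 2 matches, 104 and 85 bases before its start, and Slfn5, Cxcl10 and Fcgr4 have 1 each, 155, 213 and 73 bases before theirs. Of 9676 tested genes with a promoter window, 377 (3.90%) had at least 1 match in any of their windows. Windows were found for 24 of the 32 called interferon-stimulated genes and for fewer than 80% of the tested genes, so that a comparison of match rates between gene sets would be void and none is given. A match is a run of letters and does not show that a factor binds there, and the Fcgr4 window holds one although the gene was lower in iMo.

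Of 24 Toll-like receptor genes and adaptors 4 were higher and 3 lower, against 7.48% and 11.9% of all tested genes. The 3 were Tnip3 (-1.17 ± 0.25), Irak2 (-0.66 ± 0.11) and Tlr13 (-0.61 ± 0.17), and 1 of them was called without the second DBA2J iMo library. Without the rescaling 7 were higher and none lower. Tlr5, the receptor for bacterial flagellin, stood at 17.4, 18.3, 33.5 and 33.1 TPM in iMo, against 2.47, 3.26, 3.77 and 3.81 TPM in pMo, without overlap (2.57 ± 0.17, adjusted p = 1.24e-04). Tlr9, which senses unmethylated DNA (0.94 ± 0.19), its chaperone Unc93b1 (0.85 ± 0.09) and the lipopolysaccharide co-receptor Cd14 (0.93 ± 0.19) were higher too. Tlr4 (-0.13 ± 0.21), Tlr2 (0.07 ± 0.14), Tlr7 (-0.49 ± 0.26) and Myd88 (0.32 ± 0.11) did not pass.

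Paired and lectin receptors were called in both directions, 11 higher and 13 lower of 40, against 7.48% and 11.9% of all tested genes. Higher in iMo were the lectins Clec5a (2.92 ± 0.40), Clec4a2 (1.72 ± 0.24), Clec4d (1.39 ± 0.25) and Clec7a (Dectin-1, the receptor for fungal beta-glucan, 1.19 ± 0.22), the sialic acid receptor Cd33 (1.90 ± 0.28), Cd300lg (1.60 ± 0.13) and the lipid-sensing receptor Trem2 (1.14 ± 0.27). Clec7a stood at 390.4, 448, 473 and 366 TPM in iMo, against 121, 233, 174 and 228 TPM in pMo. Lower in iMo were Trem1, an amplifier of inflammation (-2.56 ± 0.27), Treml4 (-2.09 ± 0.16), the collagen receptor Lair1 (-2.00 ± 0.23), Siglecg (-1.64 ± 0.29), Pilra (-1.42 ± 0.13), Cd300c2 (-1.47 ± 0.11) and Cd300ld (-2.51 ± 0.17), whose reads and those of its neighbour Cd300ld3 cannot be told apart with certainty. Treml4 stood at 140.3, 213, 213 and 270.2 TPM in iMo, against 860.4, 842, 863 and 929.6 TPM in pMo, and its levels were close within each kind. Trem2 therefore lay on the opposite side to Trem1 and Treml4. Trem2 stood at 81.8, 40.0, 53.7 and 60.1 TPM in iMo, against 21.8, 18.4, 41.2 and 24.5 TPM in pMo. Trem1 stood at 6.38, 6.66, 6.73 and 17.1 TPM in iMo, against 51.1, 55.8, 58.3 and 52.8 TPM in pMo.

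Receptors for antibody and complement were higher in 3 of 14 cases and lower in 4, against 7.48% and 11.9% of all tested genes. Fcgr4 (CD16-2, an activating receptor for immunoglobulin G that marks patrolling monocytes) stood at 62.8, 64.2, 43.7 and 46.2 TPM in iMo, against 338, 440.2, 352 and 385 TPM in pMo, well below in iMo (-2.80 ± 0.13, adjusted p = 5.94e-05). Fcgr1, given above, and the low-affinity receptor Fcgr3 (0.72 ± 0.11) were higher, and the inhibitory receptor Fcgr2b (0.28 ± 0.09, adjusted p = 0.072) did not pass. The neonatal receptor Fcgrt, which recycles immunoglobulin, was lower at -1.29 ± 0.09. Cd93, a receptor linked to clearance of dying cells, stood at 465, 565, 2327 and 2194 TPM in iMo, against 87.4, 79.2, 895 and 964 TPM in pMo. It was higher in iMo within each strain, while the DBA2J libraries of both kinds lay above those of C57BL6J, so that the pooled groups overlapped (1.94 ± 0.26, adjusted p = 0.00185).

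Complement genes were called in both directions, 4 of 11 higher and 3 lower, against 7.48% and 11.9% of all tested genes. The 3 chains of C1q, the subunit that starts the classical pathway, were lower in iMo, with C1qa at 1.07, 12, 1.89 and 7.69 TPM in iMo, against 48.5, 53.9, 84.7 and 80.7 TPM in pMo, and at -3.70 ± 0.58 (adjusted p = 0.00401) for C1qa, -2.74 ± 0.36 for C1qb and -3.53 ± 0.48 for C1qc. The iMo libraries held between 2 and 13 reads of C1qa. C3, the central component, stood at 771, 741, 843 and 765 TPM in iMo, against 129, 159, 266 and 229 TPM in pMo. Factor B, encoded by Cfb, stood at 86.9, 80.0, 93.1 and 86.8 TPM in iMo, against 7.29, 22.5, 18.6 and 24.5 TPM in pMo. Both were higher in every iMo library (2.05 ± 0.16 and 2.31 ± 0.31), as were C1ra (1.59 ± 0.22) and the properdin gene Cfp (0.86 ± 0.18). The C1q chains are also among the 16 tested markers of lung macrophages, of which 6 were lower in iMo (3 without the first C57BL6J iMo library or without the rescaling) and none higher, and which summed to 57.7 to 129 TPM in iMo and 227 to 325 TPM in pMo. The part of macrophage RNA in the C1q difference was not tested. Of the markers that define alveolar macrophages, Siglecf stood at 1.34, 1.33, 1.02 and 0 TPM in iMo, against 2.66, 4.26, 1.14 and 4.88 TPM in pMo. Marco stood at 0.0518, 0, 0.0443 and 0 TPM in iMo, against 0.353, 17.3, 0.153 and 2.22 TPM in pMo, most of it in 1 C57BL6J pMo library.

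Scavenger receptor and lipid handling genes were lower in 10 of 31 cases and higher in 1, against 11.9% and 7.48% of all tested genes. Without the rescaling 7 were lower and 4 higher, and the other scalings gave 7 to 11 lower and 3 to 5 higher. Fabp4, a fatty acid binding protein, stood at 8.76, 6.95, 3.89 and 8.79 TPM in iMo, against 104, 139.7, 95.5 and 71.6 TPM in pMo. Cd36, the fatty acid and oxidised lipoprotein receptor, stood at 10.3, 24.7, 13.3 and 15.5 TPM in iMo, against 137, 213, 75.6 and 112 TPM in pMo. The nuclear receptor Pparg, which is known to drive both of these genes in macrophages, stood at 2.88, 4.07, 5.79 and 5.42 TPM in iMo, against 46.4, 60.8, 39.9 and 58.9 TPM in pMo. All 3 were lower in every iMo library, at -3.69 ± 0.24, -2.97 ± 0.31 and -3.26 ± 0.22, with adjusted p of 1.24e-04, 6.46e-04 and 1.24e-04. The oxysterol receptor Nr1h3 (-1.50 ± 0.26) and the cholesterol exporters Abca1 (-1.55 ± 0.18) and Abcg1 (-1.29 ± 0.17), which it is known to induce, were lower too. The 1 that was higher by the scaling used here was the scavenger receptor Msr1 (1.64 ± 0.21), with 74.2 ± 19.2 TPM in iMo and 23.3 ± 6.55 TPM in pMo (SD, n = 4 each). G0s2 stood at 12.1, 0, 13.5 and 14.6 TPM in iMo, against 180.1, 191, 213 and 129 TPM in pMo. Alox15 had at most 2 reads in an iMo library, against 66 to 117 in pMo libraries.

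Signalling genes of cyclic nucleotides, G proteins and phosphatases were lower in 13 of 36 cases and higher in 2, a split that was 11 and 11 without the rescaling. With it, 11.9% of all tested genes were lower and 7.48% higher. Adrb1, the beta-1 adrenergic receptor, stood at 10.7, 2.17, 6.67 and 20.1 TPM in iMo, against 179, 123, 142 and 157 TPM in pMo. Dusp16, a phosphatase of the stress kinase JNK, stood at 10.1, 16.9, 9.15 and 16.4 TPM in iMo, against 241, 269, 122 and 195 TPM in pMo. Both were lower in every iMo library (-4.09 ± 0.48 and -3.86 ± 0.27, adjusted p = 0.00114 and 1.38e-04). The cyclic AMP phosphodiesterases Pde4b (-0.88 ± 0.13), Pde7a (-1.04 ± 0.16) and Pde3b (-1.10 ± 0.26), the adenosine receptor Adora2a (-0.73 ± 0.16) and the ectonucleotidase Entpd1 (-1.06 ± 0.19) were lower as well, with the call of Adora2a ending with each of the other 3 scalings of TPM and that of Pde3b without the rescaling. The prostaglandin E receptor Ptger2 (0.81 ± 0.21) and the adenylate cyclase Adcy9 (0.81 ± 0.16) were higher. Ace, the angiotensin-converting enzyme of patrolling monocytes, stood at 762, 1209, 686 and 1074 TPM in iMo, against 4096, 3253, 3772 and 3852 TPM in pMo and was lower in iMo (-2.04 ± 0.19, adjusted p = 4.48e-04). The muscle-type enolase Eno3 stood at 90.6, 97.6, 106 and 212 TPM in iMo, against 807, 831, 969 and 916 TPM in pMo (-2.88 ± 0.21, adjusted p = 1.68e-04).

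Response genes of NF-kB and inflammatory cytokines were lower in iMo in 11 of 29 cases, 7 without the second DBA2J iMo library, and higher in 2, a split that was 6 and 6 without the rescaling. The shares of all tested genes with the rescaling were 11.9% lower and 7.48% higher. Cd83, a surface protein of activated antigen-presenting cells, stood at 16.4, 17.4, 15.8 and 16.9 TPM in iMo, against 145, 197, 105 and 131 TPM in pMo. Nfkbiz, a nuclear cofactor of NF-kB, stood at 99.4, 125, 109 and 124 TPM in iMo, against 514, 655, 426 and 495 TPM in pMo. The values were tight within iMo and did not overlap with pMo (-3.01 ± 0.16 and -2.17 ± 0.14, adjusted p = 7.48e-05 and 1.24e-04). Tnf, the cytokine, stood at 16.0, 15.3, 24.1 and 15.2 TPM in iMo, against 40.3, 84.4, 71.8 and 60.7 TPM in pMo (-1.78 ± 0.24, adjusted p = 0.00221). Nfkbia, the inhibitor that NF-kB induces, was lower at -0.59 ± 0.16, but not without the rescaling or with median-of-ratios scaling. Il1b (-0.57 ± 0.24, adjusted p = 0.141), Il1a (0.08 ± 0.35) and Tnfaip3 (-0.34 ± 0.15) did not pass. The 2 that were higher were Tnfaip2 (1.75 ± 0.16) and the atypical inhibitor Bcl3 (1.10 ± 0.20).

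Genes of immediate early response, which rise within minutes of many stimuli including tissue dissociation, were called in both directions, 3 of 24 higher and 5 lower. Without the rescaling, and on the recovered reads, 7 were higher and 5 lower. By the scaling used here, 7.48% of all tested genes were higher and 11.9% lower. Atf3 (0.74 ± 0.18), Fosl2 (0.75 ± 0.10) and Junb (0.85 ± 0.15) were higher and Jun (-1.09 ± 0.21), Dusp5 (-2.11 ± 0.22), Dusp2 (-1.47 ± 0.24), Ppp1r15a (-0.81 ± 0.15) and Nr4a1 were lower, while Fos (1.32 ± 0.42, adjusted p = 0.0635) and Egr1 (0.22 ± 0.20, adjusted p = 0.482) did not pass. Nr4a1 is also the gene on which patrolling monocytes depend, and stood at 806, 1249, 1049 and 1433 TPM in iMo, against 2739, 2229, 3383 and 3292 TPM in pMo (-1.37 ± 0.17, adjusted p = 0.00128). Of 18 chemokine genes 4 were higher and 6 lower, the first being Cxcl9, Cxcl10, Ccl9 (1.70 ± 0.15) and Ccl6 (1.43 ± 0.11), and the others Ccl22 (-3.02 ± 0.31), Ccl3 (-1.93 ± 0.36), Cxcl16 (-0.97 ± 0.24), Cxcl14 (-1.95 ± 0.38), Ccl5 (-1.49 ± 0.43) and Pf4, where the calls of Cxcl16 and Ccl5 ended without the rescaling. The counts were then 4 higher and 3 lower, and 4 and 4 with median-of-ratios scaling. Ccl3, which attracts cells through CCR1, stood at 42.7, 45.7, 12.6 and 21.2 TPM in iMo, against 171, 307, 30.1 and 78.6 TPM in pMo. Pf4, a platelet chemokine, had no read in iMo and 29 over the pMo libraries, at least 7.66-fold lower by the floor of 3 reads. Platelet and erythroid markers summed to 14 to 303 TPM in iMo and 97.9 to 494 TPM in pMo, and 1 of 9, Pf4 itself, was called. Ccl5 is also a marker of NK cells, of which 5 of 12 were lower and which summed to 43.8 to 352 TPM in iMo and 82.4 to 714 TPM in pMo. The part of platelet and NK cell RNA in these differences was not tested.

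Of 27 apoptosis and survival genes 6 were lower in iMo and 2 higher, but without the rescaling 4 were lower and 7 higher. The other scalings gave 6 lower and 5 to 9 higher, so that the balance of the list depends on the scaling. With the rescaling, the 2 higher are near the 7.48% of all tested genes, of which 11.9% were lower. Bcl2, the founding anti-apoptotic gene, stood at 76.3, 94.0, 102 and 141 TPM in iMo, against 245, 298, 268 and 374 TPM in pMo, without overlap (-1.53 ± 0.17, adjusted p = 8.25e-04). The related survival genes Bcl2a1b (-2.82 ± 0.36), Bcl2a1d (-2.27 ± 0.51) and Bcl2a1a (-2.15 ± 0.46) were lower too, and their reads cannot be told apart with certainty. Lower as well were the pro-apoptotic genes Pmaip1 (-0.72 ± 0.18) and Bmf (-0.68 ± 0.12), both calls that ended without the rescaling, while the pro-apoptotic Bcl2l11 (0.81 ± 0.15) and the death ligand Tnfsf10 (0.96 ± 0.22) were higher. Mcl1 (0.36 ± 0.16) and Bcl2l1 (-0.53 ± 0.20) did not pass. Among growth factor and cytokine receptors 6 of 28 were higher (3 without the first DBA2J iMo library) and 8 lower. Without the rescaling 8 were higher and 3 lower. Higher were the TGF-beta family receptor Acvrl1 (1.21 ± 0.19), the death receptor Tnfrsf21 (0.90 ± 0.10), Csf2rb2 (0.68 ± 0.11), the gp130 chain gene Il6st (0.57 ± 0.13), the G-CSF receptor Csf3r (0.50 ± 0.13) and Tnfrsf14 (0.48 ± 0.14). Csf1r, the receptor on which monocyte survival depends, stood at 1338, 1430.4, 1373 and 1415 TPM in iMo, against 2154, 1914, 1902 and 1998 TPM in pMo. Its values were tight within each kind, and the difference was small (-0.52 ± 0.08, adjusted p = 0.00424) and did not pass without the rescaling or with median-of-ratios scaling. The TGF-beta receptor chains Tgfbr1 (-1.62 ± 0.25) and Tgfbr2 (-0.88 ± 0.12) were lower.

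Of 54 lineage transcription factors 12 were higher in iMo and 17 lower, and without the rescaling the counts were 20 and 11. With it, 7.48% of all tested genes were higher and 11.9% lower. Cebpa, which drives the myeloid lineage and is known from classical monocytes and their precursors, stood at 1778, 1120.2, 1008 and 1105 TPM in iMo, against 446, 191, 242 and 339 TPM in pMo, without overlap (2.07 ± 0.28, adjusted p = 0.00218). Cebpd was higher at 1.65 ± 0.22, and Cebpb, on which patrolling monocytes are known to depend in mice, did not pass (0.67 ± 0.38, adjusted p = 0.26). The aryl hydrocarbon receptor Ahr stood at 61.6, 79.9, 81.6 and 94.9 TPM in iMo, against 12, 10.8, 10.8 and 12 TPM in pMo. The factor Maf stood at 341, 279, 451 and 382 TPM in iMo, against 61.4, 57, 92.7 and 64.5 TPM in pMo. Both differences were uniform across libraries (2.69 ± 0.14 and 2.39 ± 0.14, adjusted p = 7.48e-05 and 1.02e-04). Batf3 (1.82 ± 0.21), Arid5a (1.73 ± 0.21), Notch1 (1.43 ± 0.17), Irf4 (0.88 ± 0.13), Rxra (0.76 ± 0.16) and Irf8 (0.64 ± 0.16), which sets monocyte fate in progenitors, were higher too.

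Lower in iMo beside Nr4a1 and Pparg were Tcf7l2, a factor of Wnt signalling that stood at 11.8, 13.7, 11 and 13.7 TPM in iMo, against 71.7, 87.5, 51.4 and 85.7 TPM in pMo (-2.45 ± 0.19, adjusted p = 1.86e-04), Bhlhe40 (-2.30 ± 0.21), Runx2 (-1.92 ± 0.25), Nr4a3 (-1.80 ± 0.44), Gfi1 (-1.42 ± 0.41), Bcl6 (-1.23 ± 0.12), Mef2c (-0.94 ± 0.26), Hes1 (-0.90 ± 0.20), Stat3 (-0.64 ± 0.12) and Klf4 (-0.77 ± 0.12). The calls of Nr4a3, Mef2c, Hes1 and Stat3 ended without the rescaling, and that of Gfi1 with quantile normalization or median-of-ratios scaling. Bcl6, a repressor, had 175 ± 22.5 TPM in iMo and 409 ± 26.5 TPM in pMo (SD, n = 4 each). Ets1 (-2.26 ± 0.23), Bach2 (-1.57 ± 0.18) and Pou2f2 (-1.33 ± 0.15) were lower as well and are also known from lymphocytes, whose B cell and NK cell marker sums are given above, and their part in these results was not tested. Spi1 (PU.1, -0.36 ± 0.12), Klf2 (0.65 ± 0.28), Irf1 (0.44 ± 0.15), Irf5 (0.22 ± 0.08), Zeb2 (-0.17 ± 0.23) and Runx1 (-0.19 ± 0.18) did not pass.

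Among 17 genes that act in MHC class II presentation 4 were higher, 2 without the first C57BL6J iMo library, and 4 lower. Without the rescaling 6 were higher and 3 lower. The shares of all tested genes with the rescaling were 7.48% higher and 11.9% lower. H2-Eb1 (the E beta chain) was lower at -1.29 ± 0.16 and H2-Aa (the A alpha chain) at -0.73 ± 0.12, which did not pass without the rescaling, while H2-Ab1 (-0.52 ± 0.18, adjusted p = 0.0853), Cd74 (-0.39 ± 0.15) and the regulator Ciita (-0.09 ± 0.14) did not pass. The peptide loading chain gene H2-DMa (1.08 ± 0.12), the thiol reductase Ifi30, which opens disulfide bonds of antigens (1.23 ± 0.22), the costimulator Cd80 (0.52 ± 0.15) and the protease Ctss (0.34 ± 0.09) were higher. H2-Oa (-1.28 ± 0.26) and H2-Ob (-1.49 ± 0.28), the modulators of peptide loading that are best known from B cells, were lower. Genes of MHC class I presentation were lower in 8 of 22 cases and higher in 1, and without the rescaling 2 were lower and 4 higher. H2-K1, a classical class I heavy chain, stood at 3433, 2947, 3366 and 3346 TPM in iMo, against 5246, 5477, 4818 and 6485 TPM in pMo (-0.74 ± 0.11, adjusted p = 0.00349, not called without the rescaling), and its light chain B2m (-0.04 ± 0.16, adjusted p = 0.885) did not pass. H2-Q7 (-1.52 ± 0.26) and H2-Q6 (-1.64 ± 0.22) share near-identical sequence and are uncertain as single genes.

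Of 30 cell cycle genes 8 were lower in iMo, 5 without the first C57BL6J iMo library or without the rescaling, and 1 higher. With all libraries and the rescaling, 11.9% of all tested genes were lower and 7.48% higher. The D-type cyclins Ccnd2 (-2.69 ± 0.25) and Ccnd1 (-1.90 ± 0.25), and the replication helicase subunits Mcm5 (-1.57 ± 0.13), Mcm6 (-1.32 ± 0.23) and Mcm3 (-1.20 ± 0.18), led the genes that were lower. Mcm5 stood at 9.97, 8.13, 11 and 11.2 TPM in iMo, against 27.6, 31.9, 33.1 and 34.7 TPM in pMo. The proliferation marker Mki67 (-0.89 ± 0.21, adjusted p = 0.0243) was lower too, but not without the rescaling, whereas Top2a (-0.87 ± 0.33, adjusted p = 0.111), Ccna2 (-0.17 ± 0.36) and Pcna (-0.21 ± 0.14) did not pass, and Aurkb (1.21 ± 0.30) was higher.

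Oxidative phosphorylation had 3 of 31 genes higher (0 without the first DBA2J iMo library) and none lower, with a median of 0.15, led by Cox4i1 (0.84 ± 0.22). The share higher is near the 7.48% of all tested genes, of which 11.9% were lower. At an unadjusted p under 0.05 there were 8 higher and none lower, and neither strain alone gave a call in this list. Without the rescaling 10 were called higher and none lower, and the other scalings called 4 to 9 higher. Glycolysis had 2 of 24 higher (0 without the first C57BL6J pMo library) and 5 lower (2 without the first DBA2J iMo library), but 6 higher and 2 lower without the rescaling. With the rescaling, the share higher is again near that of all tested genes. Among the 5 were Eno3 and the glucose transporter Slc2a3 (-0.97 ± 0.28), whose call ended without the rescaling, and Gapdh is uncertain because of its many near-identical copies. Lysosomal genes were higher in 9 of 30 cases and lower in 4 (2 without the first C57BL6J iMo library), or in 12 and 2 without the rescaling, with Npc2, which carries cholesterol out of the lysosome, at 571, 512, 498 and 437 TPM in iMo, against 119.7, 144, 123 and 108 TPM in pMo (2.02 ± 0.10, adjusted p = 7.48e-05). Ctsc, the protease that activates granule proteases, was higher at 1.19 ± 0.17, and Ctsb was lower at -0.86 ± 0.08. Glutathione and redox genes were higher in 5 of 26 cases and lower in 3 (1 without the first C57BL6J iMo library), but in 10 and none without the rescaling. They were led by the microsomal transferase Mgst1 (1.75 ± 0.12), the peroxiredoxin Prdx5 (1.49 ± 0.19) and Gstm1 (1.08 ± 0.25). Cholesterol synthesis had 2 of 20 higher and 2 lower, both near the shares of all tested genes. With the deposited values 6 were higher and none lower.

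Markers of other cells were searched because the sort gates could admit them, and most that were called were lower in iMo. Of all tested genes 11.9% were lower and 7.48% higher. B cell markers were lower in 6 of 9 cases, at 126, 160.3, 609.9 and 685 TPM in iMo and 282, 413, 3458 and 3265 TPM in pMo as sums, and the high DBA2J values came mainly from Cd22. NK cell markers were lower in 5 of 12, with sums of 199, 352, 63.4 and 43.8 TPM in iMo and 582, 714, 82.4 and 330.4 TPM in pMo, and the 2 NK cell calls within a strain were in DBA2J. The calls on B cell and NK cell markers ranged from 3 to 8 and from 0 to 7 when 1 library was left out, and were 3 and 2 without the rescaling. T cell markers had no call among 5 tested, and 2 were lower at an unadjusted p under 0.05. With recovered reads scaled to the library total 1 was called lower, and with limma voom on the recovered reads none was. Dendritic cell markers were lower in 4 of 11, 2 without the first C57BL6J pMo library or without the rescaling, and higher in 1, Bst2, which interferon also induces, and the conventional dendritic cell factor Zbtb46 was lower at -2.22 ± 0.26. The only eosinophil or mast cell gene tested, Ccr3, had no read in iMo and was at least 13.2-fold lower by the floor of 3 reads. Its call ended with quantile normalization. Of 9 endothelial, epithelial and fibroblast markers Vwf (-2.72 ± 0.24) was lower.

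The comparison within each strain, in a model with 1 mean per group, called 1128 genes in C57BL6J (8.79% of the tested genes) and 842 in DBA2J (6.56%). In both strains 619 were called, which is 54.9% of the C57BL6J calls and 73.5% of the DBA2J calls, and 616 of these had the same direction. Of all tested genes 448 were called higher and 680 lower in C57BL6J, and 378 higher and 464 lower in DBA2J. Interferon-stimulated genes were called higher in 23 of 41 cases in C57BL6J and 20 in DBA2J, and patrolling markers lower in 20 and 19 of 23.

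The direct test of a strain-dependent difference called 19 genes (0.148%), and 13 of them were microRNA, small nucleolar or other small RNA entries that rested on few reads. Of the 10 largest, all of this kind, Mir7017 led with an interaction (DBA2J minus C57BL6J) of 11.69 ± 0.74, and none had more than 8 reads in any library. The others with more reads, chosen after their values were seen, were few. Cd177, a surface protein of neutrophils and some monocytes, stood at 304, 263, 490.0 and 415 TPM in iMo, against 4.82, 3.97, 51.1 and 48.1 TPM in pMo. It was higher in iMo in both strains, by 3.16 in DBA2J and 5.72 in C57BL6J, and the DBA2J pMo libraries held about 10 times the C57BL6J pMo level (interaction -2.56 ± 0.24, adjusted p = 0.0205). Id2, an inhibitor of basic helix-loop-helix factors, stood at 108, 122, 179.9 and 160.5 TPM in iMo, against 180.3, 174, 60.5 and 49.7 TPM in pMo. Its difference was 1.61 in DBA2J and -0.62 in C57BL6J (interaction 2.23 ± 0.23, adjusted p = 0.0288).

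The membrane protein gene Emp1 stood at 5.67, 9.12, 217 and 201 TPM in iMo, against 11.4, 15.3, 41.2 and 36.0 TPM in pMo, with interaction 3.20 ± 0.36 (adjusted p = 0.0396). The sialic acid receptor Siglece stood at 54.6, 47.5, 88.0 and 101 TPM in iMo, against 42.1, 35.9, 283 and 311 TPM in pMo, with interaction -2.02 ± 0.23 (adjusted p = 0.0418). Emp1 was highest in DBA2J iMo and Siglece in DBA2J pMo. The telomerase RNA gene Terc was at 0 in both DBA2J pMo libraries (interaction 5.08 ± 0.46), with at most 7 reads in any library. With the replicate number as a block none of the 19 was called and 1 other gene was. Adjusted p (limma) was then 0.0899 for Cd177, 0.107 for Id2, 0.088 for Emp1, 0.107 for Siglece, 0.0786 for Terc and 0.0744 for Mir7017. With a filter of 5 TPM the 3 calls were Cd177, Terc and Mir7017. Without the rescaling only Mir7017 of the 6 was called. The direction of all 6 was the same under each alternative that kept the gene in the test. The number of interaction calls was 0 without the second C57BL6J pMo library and 52 without the first DBA2J pMo library, so that a single library moves this count.

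**Figure D5:**
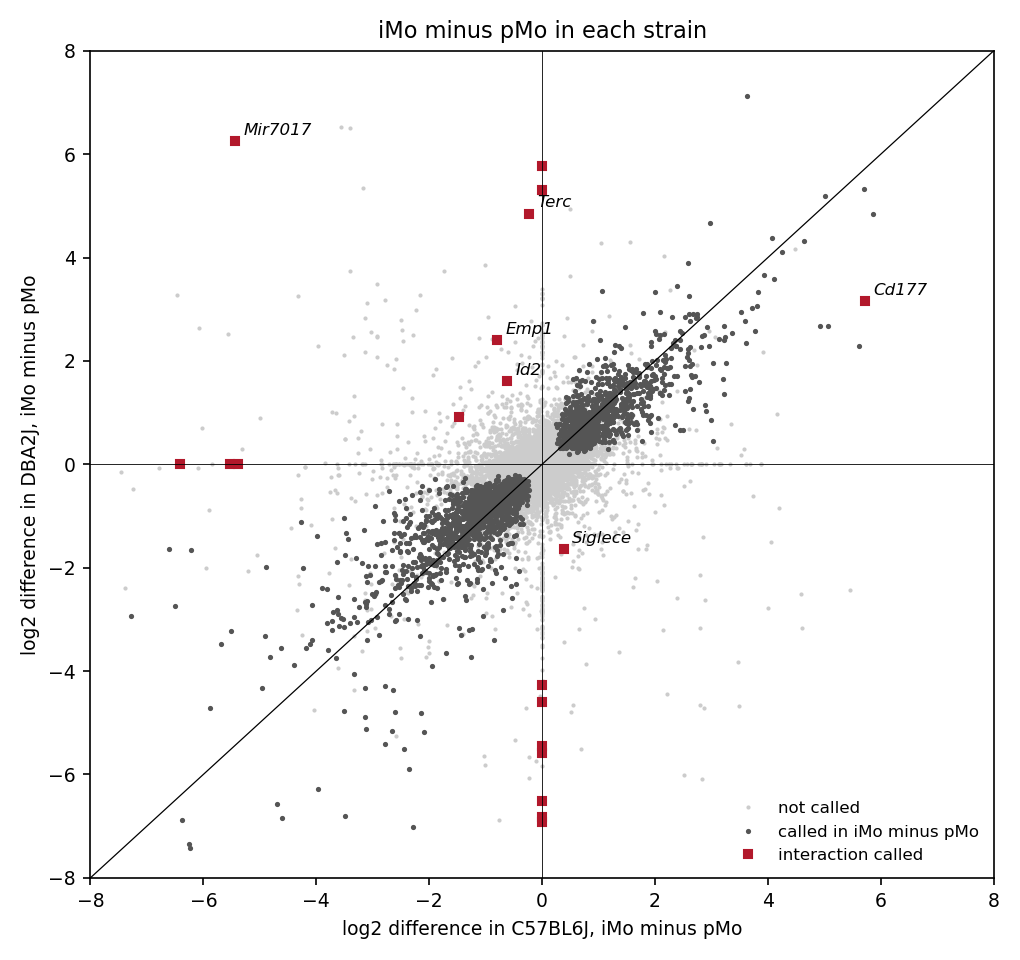
Log2 difference, iMo minus pMo, in DBA2J (vertical) against C57BL6J (horizontal) for each tested gene, with genes called over both strains in dark grey and the 19 interaction calls as red squares. Most dark points lie in the quadrants of equal sign along the diagonal, Cd177 lies below it, Id2, Emp1 and Terc lie above it, and most other squares sit on an axis, where 1 strain had equal values in both kinds.

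Open chromatin near these genes was described from the deposited peak lists, which hold 1 list per cell type and strain, made from 2 libraries. Peaks found in both strains of one kind and overlapping no peak of the other kind by 1 base or more numbered 1940 for iMo and 1297 for pMo. An iMo-only peak lay within 10 kb of the gene start for 73 of the 960 genes higher in iMo (7.60%, exact 95% binomial interval 6.01% to 9.47%), for 54 of the 1530 lower in iMo (3.53%, 2.66% to 4.58%) and for 4.70% of genes not called (4.30% to 5.12%). A pMo-only peak lay there for 30 of the genes higher in iMo (3.13%, 2.12% to 4.43%), for 130 of those lower in iMo (8.50%, 7.15% to 10.0%) and for 3.06% of genes not called (2.73% to 3.41%). Each kind of peak was thus most frequent near genes higher in its own cell type, although most called genes had neither, and the intervals cover counting error only and treat neighbouring genes as independent.

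Several of the genes named above carried such a peak close to their start, in mm10 coordinates. An iMo-only peak at chr11:82951990-82952190 covers the Slfn5 start and the downstream end of the window printed above, but not its marked match. Others lay at chr2:118111681-118111881 near Thbs1, at chr13:89742254-89742454 near Vcan, and at chr1:182951409-182951609, 3279 bases before Tlr5. pMo-only peaks lay at chr3:10208552-10208752 at the Fabp4 start, at chr1:193273033-193273233 near G0s2, at chr7:43408122-43408322 near Siglecg, at chr17:34305698-34305898 near H2-Eb1, at chr17:48263684-48263884, 511 bases before Treml4, and at chr9:21246431-21246631, 1912 bases past the start of S1pr5. Exceptions were present as well, such as a pMo-only peak at chr14:20829824-20830024, 6738 bases before Plau, and an iMo-only peak at chr7:144943416-144943616, 3591 bases before Ccnd1, where the RNA of the gene was higher in the other kind.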

How the data were processed

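RNA levels came from 1 table of deposited TPM for 24940 genes and 16 libraries, made by the authors from polyA-selected, strand-specific libraries, per the labels' protocols. STAR, Bowtie, HOMER and the build mm10 are named, without roles or versions, in the submitters' processing notes. The deposited TPM are divided by genomic span, which equals end minus start for 99.5% of genes, so that genes with long introns get low levels. Of the values that could be resolved, 98.6% to 100.0% came out as whole reads. The tolerance was 0.05 reads plus the rounding error of the deposited TPM (0.0005 TPM) converted to reads.

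From these values, Rn45s and Mir6236 were removed, each library was rescaled to the same sum, and 12833 genes whose 8 monocyte libraries averaged 1 TPM or more were kept. The test was limma 3.58.1 in R 4.3.3 on log2(TPM + 1) with strain as covariate, a variance trend and Benjamini-Hochberg adjustment over all tested genes. Genes were called at an adjusted p under 0.05. The log2(TPM + 1) scale understates the change of low genes. Within-strain differences and the interaction, with their adjusted p, used limma with 1 mean for each of the 4 groups of 2 libraries. Other adjusted p come from the fit with strain as covariate unless an alternative is named. TPM bar a count model as the main test, so that limma voom on the recovered reads served as an alternative. In simulated data with means and spread taken from the data and noise independent between genes, 100 of 12833 genes were changed for each size. Of those changed by a log2 of 1, 55% were recovered, and of those changed by 2, 85%, with 5 false calls. Of 100 interactions of a log2 of 2, 30% were recovered, with 2 false calls. Far fewer genes changed there than the 2490 called in the data. The p needed for a call depends on that number, so that these shares do not give the recovery in the data.

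Peak lists of the authors (35947 and 32636 peaks for iMo and 45534 and 26592 for pMo, in C57BL6J and DBA2J) carry a deposited score whose scale is not stated, used only to rank peaks within a list. The signal of the ATAC libraries themselves was not used here. Promoters are from RefSeq, matched by gene symbol. Tables were handled in Python 3.11.15 with pandas 2.3.3, numpy 2.4.6, scipy 1.17.1 and matplotlib 3.10.9.

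The members, the 39 gene lists and the alternatives were chosen with earlier results of these data known. Named genes are, for each direction, the 15 called genes that differed most without overlap and averaged 10 TPM or more in the higher kind, predicted genes and antigen receptor segments left out. Also named are the label markers and stained antigens, up to 10 members of each list by size of difference with any lineage factor, and up to 10 interaction calls. A few further list members are named where a sentence needs them, such as receptor chains that did not pass. Some genes that meet these rules are not reported here. Alternatives covered scaling, pseudocount, filter, strain term, replicate block, variance trend, the libraries in the fit, and the peak windows and overlap.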

Additional observations from a re-analysis of the deposited data

Results flagged for a closer look

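For 293 named genes the spread of each group of 4 libraries was examined, and in 33 of 586 groups (5.63%) the highest or lowest library lay farther from the others than Dixon's critical value allows, which chance gives in about 1 in 20 groups. The 2 strains are pooled in these groups. The first C57BL6J iMo library was low for Itgb1 at 80.7 TPM, Mef2c at 18.5 TPM and Zeb2 at 284 TPM. The first C57BL6J iMo library was high for Cox4i1 at 379 TPM. The second C57BL6J iMo library was low for G0s2 at 0 TPM, H2-K1 at 2947 TPM, Ly6c1 at 0 TPM and Ptafr at 60.3 TPM. The second C57BL6J iMo library was high for Ifit1 at 49.1 TPM, Ifngr2 at 266 TPM and Itgav at 55.0 TPM. The first DBA2J iMo library was high for H2-Aa at 1423 TPM, Siglecg at 28.2 TPM and Tnf at 24.1 TPM. The second DBA2J iMo library was low for Ifit3b at 11 TPM. The second DBA2J iMo library was high for Alox15 at 0.635 TPM, Myd88 at 634 TPM, Phlda3 at 4.93 TPM, Trem1 at 17.1 TPM and Vwf at 2.86 TPM. The first C57BL6J pMo library was low for C1qc at 44.6 TPM, Msr1 at 13.5 TPM and S100a8 at 3.21 TPM. The first C57BL6J pMo library was high for Socs1 at 25.0 TPM and Socs3 at 735 TPM. The second C57BL6J pMo library was low for Irf7 at 489 TPM and Ly6c2 at 13.7 TPM. The second C57BL6J pMo library was high for Itgb2 at 1136 TPM. The first DBA2J pMo library was low for Bcl2l11 at 19.2 TPM, Ccl5 at 19.2 TPM, H2-Q7 at 85.1 TPM and Stat3 at 179.8 TPM. The second DBA2J pMo library was low for Batf3 at 12.6 TPM.

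The interaction test of limma over all genes called a difference between the strains (log2, DBA2J minus C57BL6J) for Cd177 (-2.56), Emp1 (3.20), Id2 (2.23), Mir7017 (11.69), Siglece (-2.02) and Terc (5.08). Mir7017 and Terc rest on few reads, as given above, and these calls were made with 2 libraries a group. With the replicate number as a block none of the 6 was called, and with a filter of 5 TPM Cd177, Terc and Mir7017 were.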

How the results depend on the processing

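The direction of all 236 called named genes was the same under each of the 23 alternatives that kept the gene in the test, and 167 of them were called under every one. Of 5391 values 376 lost their call and none reversed. Of the 57 named genes that were not called, 16 with differences near 0 had the opposite sign under at least 1 alternative, none of them called there. Among alternatives that kept all 8 libraries, calls ended most often without the strain term (38), without a filter on low values (26) and with TPM as deposited (26), and 30 genes lost theirs with at least 1 of the 3 other scalings of TPM. Leaving out 1 library ended 19 to 38 of these calls, fewest without the second C57BL6J iMo or the first DBA2J pMo library and most without the first DBA2J iMo library, and concerned 49 genes (Adcy9, Adgre1, Adora2a, Atf3, Aurkb, Bcl2a1a, Bcl2a1d, Ccl5, Ccr1, Ccr3, Cd80, Cfp, Clec4e, Cox4i1, Csf3r, Ctss, Cxcl16, Cxcr2, Cxcr5, F10, Gapdh, Gbp9, Gfi1, Gstm1, Hes1, Ifit3b, Il6st, Irf8, Itgad, Ltb4r1, Mef2c, Mki67, Nfkbia, Ngp, Nr4a3, Oas1g, Pde3b, Plau, Pmaip1, Ptger2, S1pr2, Serpinb2, Slc2a3, Socs1, Tlr13, Tnfrsf14, Tnfsf10, Tnip3 and Trem2), with adjusted p (limma) up to 0.129. Each of these fits has 1 sample fewer, and the cause was not tested further.

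With TPM as deposited the counts were 1808 higher and 612 lower, at least 2-fold 666 and 354, within C57BL6J 786 and 325, 210 lower within DBA2J, and 7 interactions. The interaction count was 9 with a pseudocount of 0.1, 3 with a filter of 5 TPM, 14 with median-of-ratios scaling and 5 with at least 10 recovered reads, and a pseudocount of 5 left 417 genes at least 2-fold lower. All 16 RNA libraries in 1 model gave 705 higher and 1125 lower within C57BL6J and 615 and 813 within DBA2J. Of the alternatives chosen after seeing the data, recovered reads scaled to the library total gave 1852 higher, 1227 and 1078 within C57BL6J and 966 and 835 within DBA2J, and limma voom on the reads gave 1638 higher, 668 at least 2-fold higher, 1003 higher within C57BL6J, and 848 and 787 within DBA2J. Without 1 library the range was 612 to 886 higher and 896 to 1317 lower, with 625 and 906 without the second DBA2J iMo library, 612 and 922 without the first, and 666 and 896 without the second DBA2J pMo library. Within C57BL6J it was 213 to 346 and 253 to 505, within DBA2J 61 to 352 and 85 to 431, and the interaction count ran from 0 to 52.

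With the replicate number of each strain as a block, 962 genes were higher, 1499 lower and 1 interaction was called. Deviations of same-numbered iMo and pMo libraries correlated at r = 0.12 in C57BL6J and 0.05 in DBA2J, and no label says that a number marks a shared animal or day, so that the numbers were not treated as pairs.

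The shares of genes near peaks, in the order higher and lower with an iMo-only peak, then higher and lower with a pMo-only peak, were 5.0%, 1.90%, 0.521% and 1.96% within 1 kb and 17.4%, 12%, 10.5% and 22% within 50 kb. With the C57BL6J lists alone they were 20.3%, 11.1%, 46.6% and 50.3%, and with the DBA2J lists alone 41.3%, 26.2%, 10.5% and 16.1%. The better-scored part of each list gave 1.25% and 3.07% for pMo-only peaks. In each of these settings the share near iMo-only peaks was greater among genes higher in iMo and the share near pMo-only peaks among genes lower in iMo.

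With 2 libraries a group, smaller differences and interactions can be missed, and short genes can rest on few reads. Some were missed in the simulated data too, but its recovery does not give the rate in these data.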
